A study of Mus musculus with 6 samples.

Results

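This account follows 32 marker genes of blood vessels through RNA-seq of sorted muscle satellite cells, the stem cells that lie along the muscle fibre. Of these genes, 21 mark endothelial cells, which line vessels, and 11 mark mural cells, that is, the pericytes and smooth muscle cells that wrap them. They were chosen by gene symbol, and all 32 were found among the 24980 symbols listed. The 6 libraries came from hindlimb muscles of adult C57BL6/J mice. All mice, controls included, were injected with tamoxifen (a total of 10 mg), which activates Cre. There are 3 libraries labelled scERα WT and 3 labelled scERα KO, estrogen receptor α being the targeted gene and satellite cells the targeted cells. The labels do not name the Cre line, the sex of the mice or the antibodies of the sort. Libraries are numbered by accession within each group, and a number pairs nothing. Values are TPM, a measure of abundance scaled for transcript length and library total, so levels can be set side by side between genes.

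Capillaries run along every muscle fibre, and satellite cells lie close to them. Endothelial cells are held together by junction proteins such as PECAM1, VE-cadherin and claudin 5, and are governed by receptors for VEGF and for the angiopoietins. Pericytes are recruited through the PDGF receptor β, and smooth muscle cells carry a contractile apparatus built from smooth muscle actin, myosin and calponin. When muscle is dissociated, cells of the vessel wall are released with the satellite cells. Some vessel genes are not restricted to vessels: Tek, the angiopoietin receptor Tie2, is also known from satellite cells, Fabp4 from adipocytes, and Acta2 and Tagln from activated fibroblasts and myogenic cells in culture.

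The promoters of 4 members are shown because they form the contrasts on which the values below turn: Tek and Tie1 are the paired Tie receptors, and Rgs5 and Acta2 are abundant mural genes. The windows are RefSeq sequences on GRCm38.p6, 250 bases before to 50 after the start that the RefSeq table uses, written 5′ to 3′ on the gene's strand. For Tek and Rgs5 this start is that of the GENCODE gene; for Tie1 and Acta2 it lies 212 and 217 bases downstream of the outermost GENCODE start, so distances for these genes are from the RefSeq start. Tek lies at chr4:94739039-94739338 (plus strand), Tie1 at chr4:118489800-118490099 (minus strand), Rgs5 at chr1:169655251-169655550 (plus strand) and Acta2 at chr19:34255324-34255623 (minus strand). Capitals mark CAGGAA on either strand, a core bound by ETS factors such as Erg, and CArG-like boxes, the kind of element bound by SRF in smooth muscle genes.
Tek: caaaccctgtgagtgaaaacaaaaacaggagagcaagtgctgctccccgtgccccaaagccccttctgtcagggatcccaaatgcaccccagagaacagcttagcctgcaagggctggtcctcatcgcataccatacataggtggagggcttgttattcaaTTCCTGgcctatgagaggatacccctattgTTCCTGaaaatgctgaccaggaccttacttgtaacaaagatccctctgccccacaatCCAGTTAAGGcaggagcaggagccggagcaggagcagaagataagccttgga
Tie1: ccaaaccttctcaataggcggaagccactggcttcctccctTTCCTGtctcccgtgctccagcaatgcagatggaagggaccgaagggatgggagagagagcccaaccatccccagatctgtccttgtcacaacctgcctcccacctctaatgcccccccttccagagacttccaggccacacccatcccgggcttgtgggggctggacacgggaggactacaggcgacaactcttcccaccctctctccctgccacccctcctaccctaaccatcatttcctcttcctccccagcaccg
Rgs5: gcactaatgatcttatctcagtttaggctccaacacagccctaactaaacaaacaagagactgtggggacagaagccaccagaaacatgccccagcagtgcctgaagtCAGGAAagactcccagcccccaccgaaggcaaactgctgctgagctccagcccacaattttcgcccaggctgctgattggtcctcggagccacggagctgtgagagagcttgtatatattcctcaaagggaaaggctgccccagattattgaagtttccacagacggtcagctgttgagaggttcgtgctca
Acta2: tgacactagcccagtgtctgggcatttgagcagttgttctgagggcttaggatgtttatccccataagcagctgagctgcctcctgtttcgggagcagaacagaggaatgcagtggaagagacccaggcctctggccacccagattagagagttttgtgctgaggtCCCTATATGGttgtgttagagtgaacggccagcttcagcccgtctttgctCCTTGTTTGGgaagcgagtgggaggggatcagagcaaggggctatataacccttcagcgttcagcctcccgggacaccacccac

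A CArG-like box was taken as CC and GG around 6 bases of which at least 5 are A or T, and its strands are equivalent; the 2 motifs do not overlap in these windows. Tek held CAGGAA 2 times, on the minus strand of the window, and a CArG-like box that begins 2 bases before the start. Tie1 held CAGGAA 1 time and Rgs5 1 time. Acta2 held no CAGGAA and 2 CArG-like boxes, which begin 84 and 34 bases before the start. Of 32851 promoter windows, 30.6% held CAGGAA and 9.98% a CArG-like box. Windows were matched for 19 members: CAGGAA was found in 8 of 17 windows of endothelial genes (Egfl7, Emcn, Eng, Erg, Robo4, Tek and Tie1; some genes have several windows) and in 3 of 7 windows of mural genes (Abcc9, Cspg4 and Rgs5). CArG-like boxes were found in Egfl7, Eng, Kdr and Tek and, among mural genes, in Acta2. TATAAA, searched on both strands, was in 13.6% of windows and in Erg, Flt1 and Ly6c1. These are matches of letters and not measured binding.

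The sorted cells carried the markers their label names. Pax7, the defining transcription factor of satellite cells, held 23.0, 25.4 and 23.3 TPM in WT and 17.9, 32.8 and 29.5 TPM in KO. All 12 satellite cell markers were tested, and their summed TPM lay between 504 and 657. Esr1, the targeted gene, held a mean of 7.14 TPM in WT and 3.49 TPM in KO, with every KO library below every WT library (limma adjusted p = 0.0925). TPM keeps no depth, so the precision of a single value is unknown. Whether each library is its own mouse is not in the labels, and the p-values rest on the spread among these libraries alone.

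Vessel markers were present at low levels in every library, and in none of the 32 genes were the KO libraries separated from the WT libraries. All 32 were above 0 in all 6 libraries, and in all 32 the groups overlapped; among all 8971 genes tested, 13.5% had KO wholly above WT and 3.07% wholly below. Genes were tested where at least 3 libraries reached 1 TPM. This kept 18 members, 11 endothelial and 7 mural, and each of the 18 reached 1 TPM in at least 1 library of either group. None was called by limma (Benjamini-Hochberg adjusted p under 0.05, adjusted over every gene tested), against a background of 0.0557% of genes called, and 0 of the 18 had an unadjusted p under 0.05, against 7.89% of all genes higher and 2.66% lower. The smallest adjusted p was 0.606 among endothelial markers and 0.555 among mural markers. What varied was the single library, KO library 2 being the highest and KO library 1 the lowest of the 6 for most endothelial markers. In bulk RNA, fewer cells of a type and less RNA per cell cannot be told apart.

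**Figure D1:**
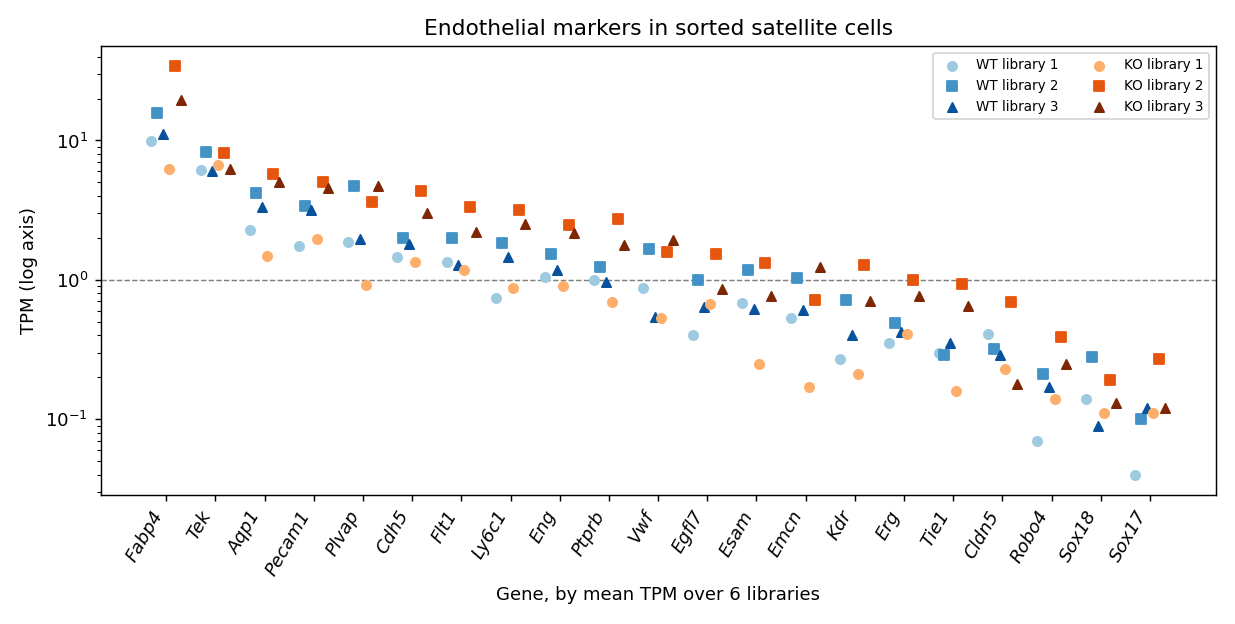
TPM of the 21 endothelial markers (log axis) in each library, genes ordered by mean, with circles, squares and triangles for libraries 1, 2 and 3 of WT (blue) and KO (orange to brown); the dashed line is 1 TPM. KO library 2 is the top point for 16 genes and KO library 1 the bottom point for 12, while the points of Tek lie close together.

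Among the junction and surface molecules, Pecam1, the adhesion molecule CD31 (chromosome 11, 106654217 to 106750628, minus strand), held 1.74, 3.40 and 3.18 TPM in WT and 1.97, 5.07 and 4.56 TPM in KO. KO libraries 2 and 3 lay above all WT libraries and KO library 1 lay among them. The means were 2.77 ± 0.902 and 3.87 ± 1.66 TPM (SD, n = 3 each), a difference of 0.33 on the log2(TPM + 1) scale (SE 0.29, limma adjusted p = 0.695). Cdh5, which encodes VE-cadherin (chromosome 8, 104101625 to 104144511, plus strand), was at 1.46, 2.0 and 1.80 TPM in WT and 1.35, 4.34 and 3.0 TPM in KO. It had the largest difference of the endothelial list, 0.43 (SE 0.27, limma adjusted p = 0.606), and KO library 1 was the lowest of all 6. The tight-junction gene Cldn5 held 0.41, 0.32 and 0.29 TPM in WT and 0.23, 0.69 and 0.18 TPM in KO. It departed from the pattern in that KO library 3, not KO library 1, was the lowest. Esam, another junctional adhesion molecule, lay between 0.62 and 1.17 TPM in WT and between 0.25 and 1.33 TPM in KO. Emcn, a surface sialomucin, ran from 0.53 to 1.03 TPM in WT and from 0.17 to 1.23 TPM in KO. For both, the KO range enclosed the WT range.

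The receptors for VEGF were near or below 2 TPM in most libraries. Flt1, VEGF receptor 1, held 1.35, 1.99 and 1.28 TPM in WT and 1.18, 3.33 and 2.19 TPM in KO, a difference of 0.30 (SE 0.24, limma adjusted p = 0.670). Kdr, VEGF receptor 2 and the main signalling receptor, held 0.27, 0.72 and 0.40 TPM in WT and 0.21, 1.28 and 0.70 TPM in KO, and did not pass the filter. Kdr was 6.10 times as high in KO library 2 as in KO library 1, a gap within 1 group that was wider than the gap between the group means, whose ratio was 1.58. Eng, a TGF-β coreceptor of endothelium, held 1.05, 1.54 and 1.17 TPM in WT and 0.90, 2.47 and 2.15 TPM in KO (difference 0.29, SE 0.23, limma adjusted p = 0.660).

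The Tie receptors parted from each other. Tek (chromosome 4, 94739289 to 94874976, plus strand) was at 6.17, 8.32 and 6.04 TPM in WT and 6.63, 8.17 and 6.26 TPM in KO. Its highest library was 1.38 times its lowest, the narrowest range of the 32 members, where the median of all genes tested was 1.62. The group means, 6.84 ± 1.28 and 7.02 ± 1.01 TPM (SD, n = 3 each), differed by 0.04 (SE 0.16, limma adjusted p = 0.937). Tie1 (chromosome 4, 118471191 to 118490061, minus strand), its orphan relative, held 0.30, 0.29 and 0.35 TPM in WT and 0.16, 0.94 and 0.65 TPM in KO, a range of 5.88 times. In WT the ratio of Tek to Tie1 was 20.6, 28.7 and 17.3, while in KO it was 41.4, 8.69 and 9.63. The 41.4 rests on the 0.16 TPM of Tie1, which did not pass the filter. Tie1 is itself among the markers that were low in KO library 1, so the ratio restates its values. Ptprb, the phosphatase VE-PTP that acts on Tie2, followed Tie1 in its order of KO libraries, at 0.69, 2.75 and 1.78 TPM, with 0.99, 1.24 and 0.96 TPM in WT.

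Fabp4, a fatty acid-binding protein of capillary endothelium and adipocytes (chromosome 3, 10204088 to 10208576, minus strand), was the most abundant endothelial member. It held 9.89, 15.7 and 11.1 TPM in WT and 6.27, 34.1 and 19.6 TPM in KO, so that KO library 2 was 5.43 times KO library 1. The difference was 0.42 with an SE of 0.49 (limma adjusted p = 0.757), and Fabp4 made up between 24.8% and 41.2% of the summed endothelial TPM. Of 6 adipocyte markers, a list added after the values of Fabp4 were seen, Retn was at 0 in all libraries and Adipoq, Plin1, Cidec, Lep and Cfd were at 0.11 TPM or less. Aqp1, a water channel, held 2.26, 4.21 and 3.33 TPM in WT and 1.48, 5.77 and 5.03 TPM in KO. Ly6c1, a surface antigen shared with leukocytes, held 0.74, 1.83 and 1.46 TPM in WT and 0.88, 3.17 and 2.5 TPM in KO. Both had KO libraries 2 and 3 above all WT libraries and KO library 1 within or below them.

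Plvap, the diaphragm protein of fenestrated and venous endothelium, held 1.87, 4.72 and 1.95 TPM in WT and 0.92, 3.63 and 4.69 TPM in KO. Vwf, the clotting factor carrier stored in endothelial granules, held 0.88, 1.66 and 0.54 TPM in WT and 0.53, 1.59 and 1.92 TPM in KO. In these genes KO library 2 was not the highest: WT library 2 led for Plvap and KO library 3 for Vwf. Selp and Sele, the endothelial selectins, likewise peaked in KO library 3, at 5.28 and 2.96 TPM, and were lowest in KO library 1, at 0.83 and 0.34 TPM. The secreted factor Egfl7 lay between 0.40 and 1.54 TPM and the guidance receptor Robo4 between 0.07 and 0.39 TPM, both highest in KO library 2 and lowest in WT library 1.

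The endothelial transcription factors were low, Sox17 and Sox18 having the lowest means of the list. Erg, an ETS factor, held 0.35, 0.49 and 0.42 TPM in WT and 0.41, 1.0 and 0.76 TPM in KO. Sox17 lay between 0.04 and 0.27 TPM and Sox18 between 0.09 and 0.28 TPM, and none of these 3 genes passed the filter. Erg and Sox17 were highest in KO library 2, whereas Sox18 was highest in WT library 2.

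Over the list, the 11 tested endothelial markers had a median log2 difference of 0.30, beside 0.12 for all genes tested, and 11 of 11 had a higher mean in KO, beside 77.6% of all genes. With the 10 untested members included, 18 of 21 were higher and the median was 0.21. Emcn, Esam and Sox18 were the 3 with lower means on the log scale. Summed TPM of the 21 members came to 31.6, 52.2 and 36.5 for WT and to 25.3, 82.7 and 59.3 for KO, or 40.1 ± 10.8 and 55.8 ± 28.9 TPM (SD, n = 3 each). The KO group thus held both the highest and the lowest sum, and its SD exceeded that of WT in 19 of 21 members. Among the 11 tested members the KO SD was above the WT SD in 10, beside 52.2% of all genes tested. As a share of the summed satellite cell markers, the endothelial sum reached 5.73%, 7.94% and 7.24% for WT and 4.65%, 12.7% and 11.3% for KO. This share is not a fraction of cells, because single genes weigh heavily in both sums. Sdc4 alone held between 157 and 266 TPM of the satellite cell sum, and Fabp4 between 24.8% and 41.2% of the endothelial sum. Pecam1 was between 7.56% and 15.5% of the level of Pax7.

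**Figure D2:**
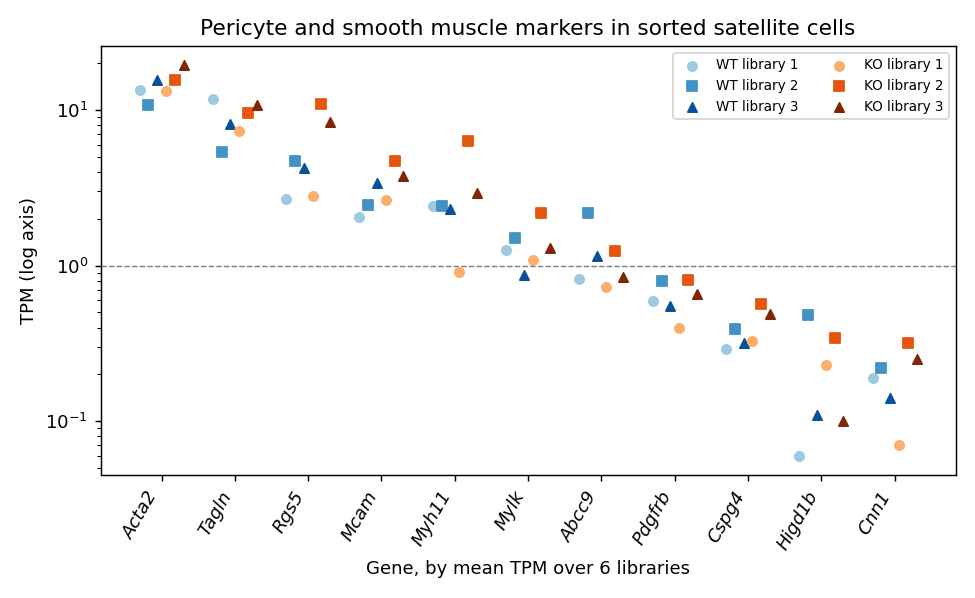
TPM of the 11 pericyte and smooth muscle markers (log axis) in each library, with symbols as for the endothelial markers and the dashed line at 1 TPM. KO library 2 is the top point for 7 genes, and Acta2 and Tagln at the left do not share that order.

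Among pericyte markers, Rgs5, a regulator of G protein signalling (chromosome 1, 169655501 to 169695813, plus strand), was at 2.69, 4.67 and 4.24 TPM in WT and 2.80, 10.9 and 8.41 TPM in KO. KO libraries 2 and 3 stood above every WT library, and KO library 1 was beside WT library 1 at the bottom. The means were 3.87 ± 1.04 and 7.36 ± 4.14 TPM (SD, n = 3 each), and the difference of 0.65 was the largest of all tested members (SE 0.39, limma adjusted p = 0.589). Pdgfrb, the PDGF receptor β, held 0.59, 0.80 and 0.55 TPM in WT and 0.40, 0.81 and 0.66 TPM in KO, and Cspg4, the proteoglycan NG2, lay between 0.29 and 0.57 TPM; neither passed the filter. Abcc9, the regulatory subunit of a vascular potassium channel, held 0.82, 2.18 and 1.16 TPM in WT and 0.73, 1.25 and 0.84 TPM in KO. It was the 1 tested member with a lower mean in KO, by -0.27 on the log2 scale (SE 0.21, limma adjusted p = 0.670), with its highest value in WT library 2. Higd1b, a pericyte-enriched gene, lay between 0.06 and 0.48 TPM, also with WT library 2 on top. Mcam, the adhesion molecule CD146 shared by pericytes and endothelium, held 2.04, 2.46 and 3.38 TPM in WT and 2.65, 4.68 and 3.75 TPM in KO (difference 0.37, SE 0.20, limma adjusted p = 0.555).

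The contractile genes did not share 1 order. Myh11, smooth muscle myosin and the most restricted of them, held 2.42, 2.43 and 2.32 TPM in WT and 0.91, 6.31 and 2.95 TPM in KO. The WT libraries had an SD of 0.0608 TPM around a mean of 2.39 (n = 3), while KO library 2 was 6.93 times KO library 1, so the group difference of 0.17 had an SE of 0.40 (limma adjusted p = 0.881). Acta2, smooth muscle actin (chromosome 19, 34241090 to 34255590, minus strand), held 13.5, 10.7 and 15.5 TPM in WT and 13.2, 15.7 and 19.4 TPM in KO. Tagln, the actin-binding protein SM22α, held 11.8, 5.40 and 8.15 TPM in WT and 7.36, 9.59 and 10.8 TPM in KO. For both, KO library 1 was not the lowest, whereas WT library 2, whose endothelial sum was below those of KO libraries 2 and 3 only, was. Their differences were 0.26 (SE 0.19) and 0.16 (SE 0.25), with limma adjusted p of 0.635 and 0.819. Mylk, the kinase of myosin light chain, lay between 0.87 and 1.5 TPM in WT and between 1.08 and 2.18 TPM in KO, and Cnn1, calponin 1, between 0.07 and 0.32 TPM over all libraries.

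The 7 tested mural markers had a median log2 difference of 0.17, beside 0.12 for all genes tested, and 6 of 7 had a higher mean in KO. Over all 11 members 9 were higher, with a median of 0.16. Summed TPM came to 35.7, 31.3 and 36.8 for WT and to 29.8, 52.6 and 48.9 for KO. Acta2 and Tagln made up between 48.1% and 71.0% of this sum. Without these 2 genes, set aside after their values were seen, the sum was 10.4, 15.1 and 13.1 TPM in WT and 9.20, 27.3 and 18.7 TPM in KO, which is the same order of libraries as for the endothelial sum. The TPM of Acta2 was 5.03, 2.30 and 3.66 times that of Rgs5 in the WT libraries and 4.71, 1.44 and 2.30 times in the KO libraries. The TPM of Rgs5 was 1.55, 1.37 and 1.33 times that of Pecam1 in the WT libraries and 1.42, 2.15 and 1.84 times in the KO libraries. This ratio was thus highest in KO library 2, but the sums of the lists did not share that order. The mural sum was 52.6 TPM beside an endothelial 82.7 in KO library 2, and 29.8 beside 25.3 in KO library 1.

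Set against their own means over the 6 libraries, the endothelial markers had a median relative level of 1.77 in KO library 2, 1.27 in KO library 3 and 0.581 in KO library 1, beside 1.12, 1.03 and 0.980 for all genes tested. In WT the medians were 0.631, 1.04 and 0.772. These medians take in the 10 untested members. The 11 tested ones alone were at 0.499, 1.60 and 1.37 in KO libraries 1, 2 and 3, and at 0.631, 1.04 and 0.756 in WT. The mural markers were at 0.792, 1.48 and 1.19 in KO libraries 1, 2 and 3. KO library 2 was above KO library 1 in 21 of 21 endothelial and 11 of 11 mural markers. Among tested markers this was 11 of 11 and 7 of 7, beside 68.5% of all genes tested. Of the 11 tested endothelial markers, KO library 2 was the highest of the 6 in 72.7%, beside 36.5% of all genes tested, and KO library 1 the lowest in 72.7%, beside 15.2%. Both libraries carry the same label.

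**Figure D3:**
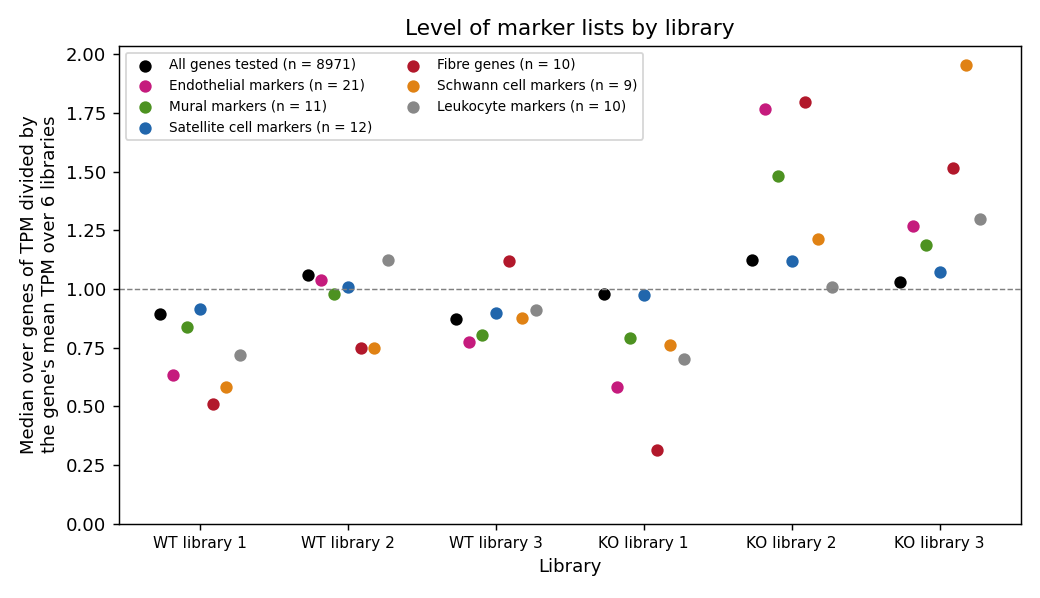
Median over the genes of each list of TPM divided by the gene's mean TPM over 6 libraries (vertical axis, from 0), by library (horizontal axis), with the number of genes in the key and the dashed line at 1. Endothelial markers go from 0.581 in KO library 1 to 1.77 in KO library 2, while the median of the satellite cell markers stays between 0.899 and 1.12. That median covers genes that moved in opposite ways. From KO library 1 to 2, Pax7 went from 17.9 to 32.8 TPM and Myod1 from 100.5 to 64.3 TPM. KO library 2 was above KO library 1 in 8 of 12 satellite cell markers, beside 68.5% of all genes tested.

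Markers of other cell types moved with this order to different degrees. The 10 fibre genes, which belong to the contractile fibre and not to its stem cells, had summed TPM of 11.0, 14.6 and 26.9 in WT and 7.37, 40.7 and 36.0 in KO, and 9 of 10 were lowest in KO library 1 and 8 of 10 highest in KO library 2. The 9 Schwann cell markers had summed TPM of 15.5, 16.2 and 20.8 in WT and 20.9, 31.7 and 42.9 in KO, highest in KO library 3. The fibro-adipogenic markers summed to between 134 and 239 TPM in WT and between 166 and 192 TPM in KO, with Pdgfra, their defining receptor, at 0.31 TPM or less. Most of that sum lay in Gsn, between 60.2 and 77.04 TPM, Col3a1, between 21.8 and 117 TPM, and Dpt. Dpt, a matrix protein, held 31.1, 23.4 and 25.8 TPM in WT and 42.7, 50.9 and 39.1 TPM in KO, with every KO library above every WT library (limma adjusted p = 0.185). The 10 leukocyte markers summed to between 3.66 and 10.1 TPM in WT and between 5.42 and 8.47 TPM in KO, with Ptprc, the CD45 gene, at 0.29 TPM or less. Cd3e was at 0 in KO libraries 1 and 3. The 6 erythroid markers summed to 215, 43.7 and 18.3 TPM in WT and 419, 437 and 38.4 TPM in KO; they were high in KO libraries 1 and 2 alike, which hold the lowest and the highest endothelial sum. Whether any of these lists has a part in the vessel marker values was not tested.

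Further endothelial genes outside the 32 members were likewise mostly highest in KO library 2. Of 20 listed further endothelial markers, 17 were highest in KO library 2, and 8 were tested, of which 7 had a higher and 1 a lower mean in KO, with 0 called (limma, smallest adjusted p = 0.137; 2 higher and 1 lower at an unadjusted p under 0.05) and a median of 0.32. Of the 8 tested, 6 were highest in KO library 2. Over all genes tested, 36.5% were highest in KO library 2 and 77.6% had a higher mean in KO. KO lay wholly above WT in 13.5%, and 7.89% were higher at an unadjusted p under 0.05 in limma. The counts of this and the following lists stand beside these shares, and the 7 of 8 is near the background. Rbp7, a retinoid-binding protein of capillary endothelium, held 0.80, 0.83 and 1.26 TPM in WT and 2.18, 3.91 and 4.71 TPM in KO, with every KO library above every WT library (difference 1.19, SE 0.22, limma adjusted p = 0.137). Cavin2, a caveolar coat protein, held 18.9 ± 0.739 in WT and 28.0 ± 5.19 TPM in KO (SD, n = 3 each, limma adjusted p = 0.285). Its KO libraries were also all above its WT libraries. These 2 of the 8 tested thus differed from the 21 members, none of which separated the groups. Lmo2, a cofactor of blood and endothelial transcription, was at 15.6, 16.2 and 11.1 TPM in WT and 10.7, 11.8 and 7.23 TPM in KO, a difference of -0.49 (SE 0.21, limma adjusted p = 0.457). Its highest value was in WT library 2 and its lowest in KO library 3. Cd93, a lectin-like receptor, was at 0.963 ± 0.352 and 1.45 ± 0.501 TPM (SD, n = 3 each; limma adjusted p = 0.606).

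Genes that separate vessel types gave no 1 picture. Of the 13 listed 6 were tested, with 6 higher in KO, 0 called (limma, smallest adjusted p = 0.635) and 0 at an unadjusted p under 0.05. In 0 of the 6 was KO wholly above WT. Genes used as lymphatic markers disagreed in level. Prox1 lay between 6.65 and 9.99 TPM and Pdpn between 56.3 and 98.3 TPM. In contrast, Lyve1 was at 0.54 TPM or less and Ccl21a was listed at 0 in 5 libraries. Which cells hold Prox1 and Pdpn was not tested, so their levels are not read as lymphatic. The lymphatic VEGF receptor Flt4 was at 0.25 TPM or less. The arterial gene Gja5 lay between 0.47 and 1.25 TPM, and Nr2f2, a venous factor, between 0.79 and 2.05 TPM, both highest in KO library 2. Hey1, a Notch target of arteries and of satellite cells, lay between 7.70 and 10.1 TPM, a narrow range.

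Further mural genes and their regulators gave no call either. Of 21 listed further mural markers 11 were tested, 9 with a higher and 2 with a lower mean in KO, and 0 were called (limma, smallest adjusted p = 0.185; 2 higher and 0 lower at an unadjusted p under 0.05; median 0.32). Smtn, the contractile protein smoothelin, held 1.82, 1.97 and 1.83 TPM in WT and 2.77, 3.41 and 3.62 TPM in KO, with the groups apart (difference 0.57, SE 0.12, limma adjusted p = 0.185). Notch3, a receptor of mural and satellite cells, held 18.3, 17.8 and 14.2 TPM in WT and 19.9, 23.2 and 21.7 TPM in KO (limma adjusted p = 0.442). Smtn and Notch3 were the 2 of the 11 tested with KO wholly above WT. Steap4 and Vtn were both highest in KO library 2, at 5.46 and 7.74 TPM, with limma adjusted p of 0.532 and 0.543. Of 8 listed regulators of smooth muscle genes 4 were tested and 0 called (limma, with 1 higher and 1 lower at an unadjusted p under 0.05). In 2 of the 4, Srf and Tead1, KO was wholly above WT. Srf, which binds CArG boxes, held 4.13 ± 0.603 in WT and 5.21 ± 0.0850 TPM in KO (SD, n = 3 each; limma adjusted p = 0.493). Its partner Myocd was at 0.19 TPM or less. Klf4, which represses smooth muscle genes, held 36.3 ± 6.58 and 25.7 ± 4.63 TPM (SD, n = 3 each; limma adjusted p = 0.403), and the transcription factor gene Tead1 4.52 ± 0.512 and 5.76 ± 0.430 TPM (limma adjusted p = 0.470).

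Ligands that act on vessels were, in part, more abundant than their receptors. Of 28 listed ligands 15 were tested, 12 with a higher and 3 with a lower mean in KO, 0 of them called (limma, smallest adjusted p = 0.262; 2 higher and 0 lower at an unadjusted p under 0.05; median 0.09). Vegfa held 16.4, 20.8 and 19.03 TPM in WT and 25.5, 24.7 and 18.0 TPM in KO (difference 0.26, SE 0.17, limma adjusted p = 0.620), against 1.28 TPM or less of Kdr. Vegfa was highest in KO library 1, where Kdr was lowest, and nearly as high in KO library 2, where Kdr was highest. Pdgfa, a PDGF ligand, held 2.80, 2.59 and 2.51 TPM in WT and 4.24, 3.34 and 5.45 TPM in KO, with the groups apart (difference 0.54, SE 0.16, limma adjusted p = 0.262), whereas Pdgfb, the ligand that endothelium gives to pericytes, was at 0.36 TPM or less. The Notch ligand gene Jag1 held 6.42 ± 1.07 and 8.46 ± 0.437 TPM (SD, n = 3 each; limma adjusted p = 0.416). Pdgfa and Jag1 were the 2 of the 15 tested with KO wholly above WT. Angptl4, Tgfb1 and Tgfb3 had limma adjusted p of 0.530, 0.599 and 0.618. The angiopoietins, ligands of Tie2, were low beside Tek itself: Angpt1 lay between 0.24 and 0.60 TPM and Angpt2 between 0.57 and 0.75 TPM.

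Of 22 further receptors of vessel signalling 12 were tested, 8 with a higher and 4 with a lower mean in KO, 0 called (limma, smallest adjusted p = 0.294; 4 higher and 0 lower at an unadjusted p under 0.05; median 0.13). Notch3, given above, is in this list too. In 3 of the 12 tested, Notch1, Notch3 and S1pr3, KO was wholly above WT. Notch1 held 7.03 ± 1.503 in WT and 10.3 ± 0.892 TPM in KO (SD, n = 3 each; difference 0.51, SE 0.16, limma adjusted p = 0.294). Nrp1, the VEGF and semaphorin coreceptor, held 1.77, 2.10 and 1.64 TPM in WT and 2.10, 2.90 and 3.40 TPM in KO (limma adjusted p = 0.391). S1pr3, a sphingosine 1-phosphate receptor, held 6.57 ± 0.203 and 8.77 ± 1.78 TPM (SD, n = 3 each; limma adjusted p = 0.462). Ephb4, a venous ephrin receptor, and Ackr3, a scavenger of CXCL12, had limma adjusted p of 0.659 and 0.734. Ackr3 was the most abundant of this list, between 26.2 and 38.0 TPM.

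The group difference of the vessel markers turned on single KO libraries. Without KO library 1 the median log2 difference of the tested endothelial markers was 0.61 and that of the mural markers 0.38, and 8 of 11 endothelial and 3 of 7 mural markers had an unadjusted p under 0.05, all higher in KO, beside 11% of all genes. The smallest limma adjusted p was then 0.203 and 0.202, so 0 of the 18 were called. Fabp4 then differed by 1.05 (SE 0.28, limma adjusted p = 0.227), Cdh5 by 0.75 (SE 0.17, limma adjusted p = 0.203) and Rgs5 by 1.14 (SE 0.22, limma adjusted p = 0.202). KO library 1 was the lowest of the 6 for 8 of 11 tested endothelial markers. Leaving it out had to raise their KO means, so these p-values restate which library was low. Leaving out KO library 3 or any 1 WT library gave 0 endothelial markers at an unadjusted p under 0.05 in limma. Among mural markers that was 1 without WT library 3 and 0 in the other such fits. Of all 8971 genes, 438, 1202 and 475 were higher at that level without WT library 1, 2 and 3. Without KO library 3 it was 474. The counts lower in KO were 244, 197, 228 and 203 in these fits. Without KO library 2 the endothelial median was 0.07, beside 0.08 for all genes tested, and the mural median 0.13, with 0 of the 18 markers at an unadjusted p under 0.05 in limma, beside 5.43% of all genes higher. Fabp4 then lay at -0.09, Myh11 at -0.30 and Plvap at -0.14. KO library 2 was the highest of the 6 for 8 of 11 tested endothelial and 4 of 7 tested mural markers. Leaving it out had to lower their KO means, so these medians restate which library was high. Tek lay at 0.07 without KO library 1 and -0.06 without KO library 2, and Acta2 at 0.38 and 0.27. Scaling by the median of ratios, which brings the median of all genes from 0.12 to 0.0029, gave endothelial and mural medians of 0.20 and 0.08, with 9 of 11 and 6 of 7 higher in KO. The 77.6% of all genes higher in KO belongs to the unscaled fit and is not the background of these counts.

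**Figure D4:**
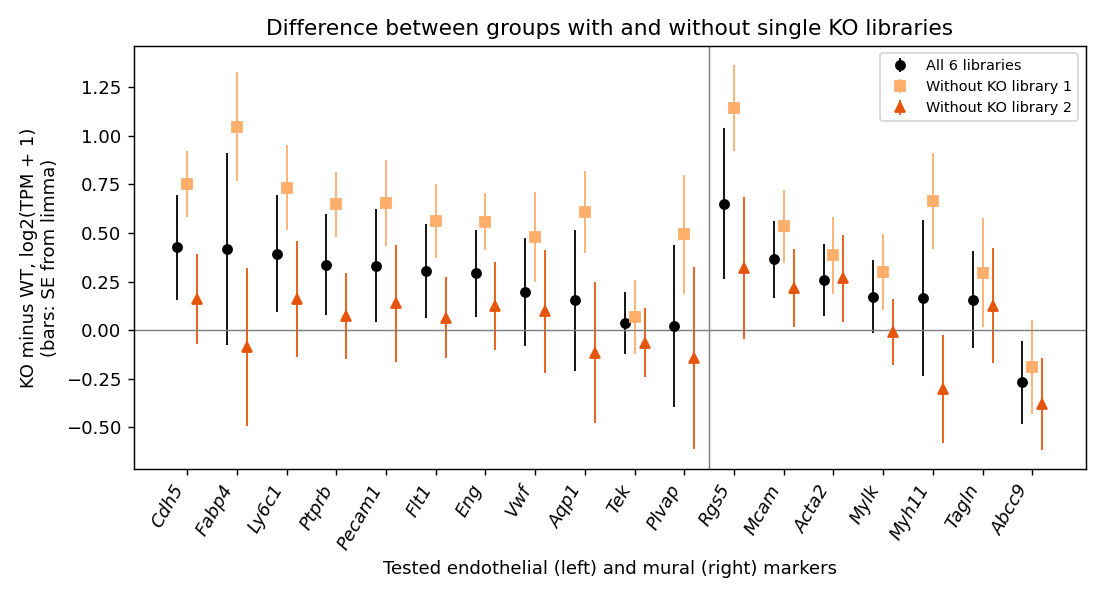
Difference KO minus WT on the log2(TPM + 1) scale, with SE from limma, for the 11 tested endothelial (left) and 7 tested mural markers (right), from all 6 libraries and without KO library 1 or 2. Rgs5 goes from 0.65 to 1.14 without KO library 1 and 0.32 without KO library 2, while Tek stays near 0.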

How the data were processed

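The authors deposited TPM per gene symbol for 6 libraries. Tools named without roles in the submitters' processing notes are kallisto, Trimmomatic 0.33, CASAVA and FastQC, with mm10 and GRCm38 as builds; the annotation and the summing of transcripts are not given in the sources used here. Per the labels' protocols, total RNA was extracted with a Qiagen kit. Over all 24980 listed symbols, TPM summed to between 295306 and 334382 per library. Where the rest of the TPM scale lies is not known, and the depth is unknown.

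The filter asked for at least 3 of 6 libraries at 1 TPM or above, leaving 8971 genes. With limma 3.58.1 (R 4.3.3), log2(TPM + 1) was compared, KO against WT (eBayes with a trend, two-sided, Benjamini-Hochberg over all genes tested, threshold 0.05); the pseudocount shrinks fold changes of low genes. The fit was tested on simulated data in which noise was drawn for each gene separately. Shifts shared by many genes of a library were not simulated, so that test does not cover them. Lists are described by counts, medians and summed TPM, without a test. Alternatives were pseudocounts of 0.1 and 5, no filter, a mean TPM of 1, median-of-ratios scaling, quantile normalization, eBayes without a trend and leaving out each library. All 32 members are named; of other lists, up to 4 tested genes (6 for ligands and receptors) with the smallest p, and further genes after their values were seen. The members and lists were chosen with earlier results of these data known. The promoters, motifs and sums without single genes were chosen after the values were seen. Gene coordinates are from GENCODE vM21 (GRCm38), 1-based. Figures were drawn with matplotlib 3.10.9.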

Additional observations from a re-analysis of the deposited data

How the results depend on the processing

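None of the 18 tested vessel markers was called under any of the 13 alternatives, where the smallest adjusted p was 0.202. Over all genes, 3 were called higher and 2 lower; with a pseudocount of 0.1, 0 were called higher, and with a pseudocount of 5, 0 lower. With no filter and with a mean TPM of 1 or more, 0 were called in either direction (limma; unadjusted p under 0.05 in 1198 higher and 374 lower, and in 723 and 243). Median-of-ratios scaling gave 1 higher and 1 lower, and quantile normalization 1 and 0; the median of all genes went to 0.0029 and -0.0014. Leaving out 1 library gave 0 to 4 higher and 0 to 2 lower. The endothelial median ran from 0.07 to 0.61 and the mural median from 0.13 to 0.38 when 1 library was left out, the lowest without KO library 2 and the highest without KO library 1.

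The sign was kept for 11 of the 18 markers. Plvap turned to -0.032 with a pseudocount of 0.1, -0.10 when scaled by the median of ratios and -0.084 with quantile normalization, and Tek to -0.10 and -0.12 under these scalings. With 1 library left out, Plvap ran from -0.29 to 0.49, Tek from -0.063 to 0.17, Aqp1 from -0.12 to 0.61, Fabp4 from -0.087 to 1.05, Myh11 from -0.30 to 0.66, Mylk from -0.0078 to 0.30 and Tagln from -0.10 to 0.41; the cause was not tested. No paired analysis was possible because no number in the titles is shared by a WT and a KO library.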
